A study of Mus musculus with 2 samples.

Results

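The genes described here are Id2, Id3 and Id4, which encode inhibitors of DNA binding, and Tcf4 and Tcf12, which encode the E proteins E2-2 and HEB. They were taken by gene symbol from the platform annotation of the deposited array table, and all 5 were found among 10208 genes with a named probe. Each had 1 probe, so no choice among probes was needed. Id1, the remaining Id gene, and Tcf3, the E2A gene that encodes E12 and E47, were without a named probe and are not analysed here.

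The cells were mouse haematopoietic cells deficient in E2A on both arrays, so the controls lacked the gene as well. One array held RNA of progenitors infected with E47ER. The other was titled bHLHER, and its source label gives E2A-deficient haematopoietic cells with no further detail, while the design text names bHLHER infection of progenitors. By its name bHLHER keeps the basic helix-loop-helix region. The labels do not say which parts of E47 either construct holds, which promoter drives it or whether a line was clonal. In both arms 4-hydroxytamoxifen, the ligand that activates oestrogen receptor fusions, was added 48 h after infection and given for 6 h. Each arm was 1 CodeLink array of 1 colour (Cy5), so no value below has a replicate check and none carries a p-value. There was no array of uninfected or untreated cells, so a gene higher with E47ER could also be described as lower with bHLHER.

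E proteins are basic helix-loop-helix factors that bind E-box sequences as dimers and drive lymphoid gene programs. Id proteins carry the helix-loop-helix that makes dimers but lack the basic region that contacts DNA, so an E protein bound to an Id protein cannot bind its sites. The balance of E and Id proteins is known to steer progenitors between B cell, T cell, innate lymphoid and dendritic cell fates.

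The 250 bases before the RefSeq start of each Id gene are shown because they hold the proximal sequence in which E-boxes were looked for. They come from the RefSeq promoter table of build GRCm38.p6 and are written 5′ to 3′ on the strand of the gene, with matches to the E-box CANNTG in capitals. The Id2 stretch is chr12:25096093-25096342 on the minus strand, the Id3 stretch chr4:136143572-136143821 on the plus strand and the Id4 stretch chr13:48260866-48261115 on the plus strand.
Id2: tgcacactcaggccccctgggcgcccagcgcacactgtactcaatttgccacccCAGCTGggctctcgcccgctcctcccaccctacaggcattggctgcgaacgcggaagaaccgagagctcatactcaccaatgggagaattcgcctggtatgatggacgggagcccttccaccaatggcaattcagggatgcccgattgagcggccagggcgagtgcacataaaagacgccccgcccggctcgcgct
Id3: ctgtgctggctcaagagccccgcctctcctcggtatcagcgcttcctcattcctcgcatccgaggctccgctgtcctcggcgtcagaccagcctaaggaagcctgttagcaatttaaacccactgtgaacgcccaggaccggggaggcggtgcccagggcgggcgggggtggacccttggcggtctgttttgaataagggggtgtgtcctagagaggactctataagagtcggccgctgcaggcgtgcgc
Id4: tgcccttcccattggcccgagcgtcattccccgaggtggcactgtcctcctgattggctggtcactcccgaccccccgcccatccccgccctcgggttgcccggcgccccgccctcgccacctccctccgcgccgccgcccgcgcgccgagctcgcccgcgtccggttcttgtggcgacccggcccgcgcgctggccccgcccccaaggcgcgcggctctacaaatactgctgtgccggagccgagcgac

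The Id2 stretch held 1 E-box, CAGCTG, from 196 to 191 bases before the start, and the Id3 and Id4 stretches held none. CANNTG reads as CANNTG on the opposite strand too, so both strands were covered. Of 32851 promoters in the table, 66.2% held at least 1 CANNTG in the same window and 13.0% held CAGCTG, a class of E-box that E proteins bind. The other E-box class examined, CAGGTG with its reverse CACCTG, was in 17.2% of promoters and in none of the 3 shown. Of 3 Tcf12 promoters in the table, 1 held CAGCTG, from 240 to 235 bases before its start, 1 held CAAGTG and 1 held no E-box. A match is a description of letters and not a binding site, and a window without one does not speak to sites elsewhere.

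Id2 was the member that differed most between the arms. Its intensity was 95.9 on the E47ER array (probe 11966) and 7.65 on the bHLHER array, in the arbitrary linear units of the deposited table. The gene was therefore 12.5-fold higher with E47ER, a log2 ratio of 3.65. Both values lay clear of the floor, the median over all probes of an array, which was 0.957 with E47ER and 0.953 with bHLHER. The Id2 signal was 100.2 times that median with E47ER and 8.03 times with bHLHER, so the fold did not rest on a dim value. Among all probes of an array it moved from the 78.6th percentile with bHLHER to the 97.9th with E47ER.

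Id3 gave values in the same direction, but smaller ones. Its intensity was 6.80 with E47ER (probe 10233) and 3.79 with bHLHER, or 7.11 and 3.98 times the median. The log2 ratio was 0.84, a fold of 1.79, below the size threshold of 1 on the log2 scale (2-fold) used to call a gene higher or lower. Id3 is induced by antigen receptor and TGF-beta signals in lymphocytes and acts beside Id2 in holding E protein activity down.

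Id4, known mainly from neural and mammary progenitors, was below the floor on both arrays. Its intensity was 0.0378 with E47ER (probe 16986) and 0.0732 with bHLHER, at percentiles 1.93 and 6.98 of all probes. No fold is given, since both values lay far under the median, where the order of the values carries no information.

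The E protein genes did not pass the size threshold in either direction. Tcf4, whose product E2-2 is required for plasmacytoid dendritic cells, had an intensity of 14.6 with E47ER (probe 13245) and 21.8 with bHLHER, a log2 ratio of -0.57. Its signal was 1.49 times as bright in the bHLHER arm. Tcf12, whose product HEB pairs with E47 in thymocytes, had 7.05 with E47ER (probe 12664) and 6.65 with bHLHER, a log2 ratio of 0.08. That ratio became -0.37 after centring on pan-leukocyte genes. With the same centring Tcf4 was at -1.03, just past the threshold on the lower side, and Id3 was at 0.39. Id2 was at 3.19 and stayed past the threshold.

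**Figure D1:**
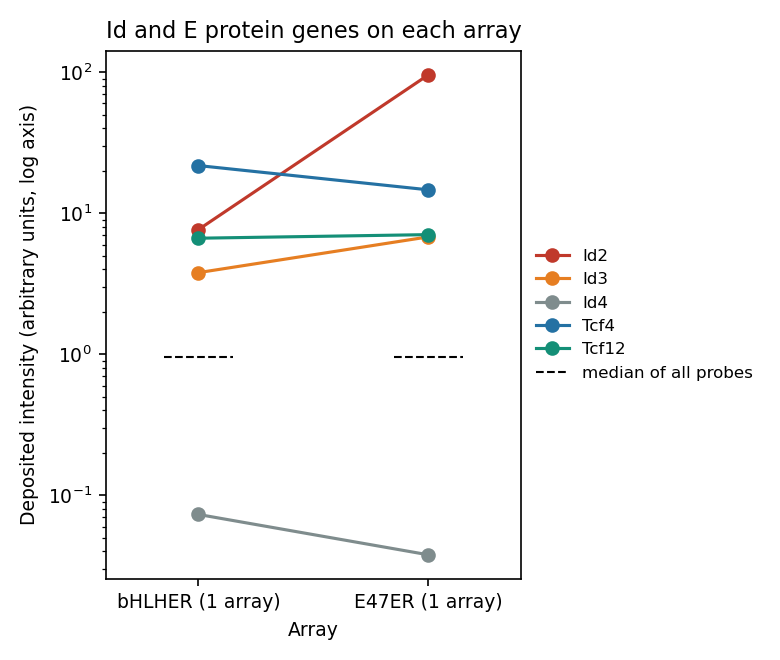
Deposited intensity (log axis) of the 5 genes on the bHLHER and E47ER arrays, 1 array each, with the median of all probes of each array as a dashed line. Id2 goes from 7.65 to 95.9, Id3, Tcf4 and Tcf12 move less, and Id4 lies under the median on both arrays; levels of different probes are not comparable with each other, only the slope of each line.

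Of the 4 members above the floor on both arrays, 1 was at least 2-fold higher with E47ER, none at least 2-fold lower and 3 lay between. Over all 5534 genes above the floor on both arrays, 128 (2.31%) passed the threshold on the higher side and 45 (0.813%) on the lower side, 3.13% in all. With centring on pan-leukocyte genes the split was 60 and 422, since that setting lowers every log2 ratio by 0.46. The median log2 ratio of all these genes was -0.05, or -0.51 with the centring, the value beside which centred list medians below are to be read. Without the centring the middle 95% of genes lay between -0.79 and 0.96. Id2 lay far outside that range, and 1 gene of the 5534 had a higher ratio. Id3 lay inside it, with 182 genes above it. Tcf4 also lay inside, with 6.79% of genes below it, and Tcf12 was near the centre, with 65.7% of genes below it.

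Id2 also had the highest ratio among genes of like brightness. Genes were put into 10 classes of mean log2 intensity, each of about 553 genes. Id2 was first in its class, the 9th, while the middle 95% of that class lay between -0.72 and 0.89. In that class 9 genes passed the threshold on the higher side and 3 on the lower side. Id3 and Tcf12 shared the 5th class, whose middle 95% lay between -0.73 and 1.26, and stood at ranks 25 and 214 of 553. Tcf4 stood at rank 518 of 553 in the 8th class, whose middle 95% lay between -0.79 and 1.12.

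**Figure D2:**
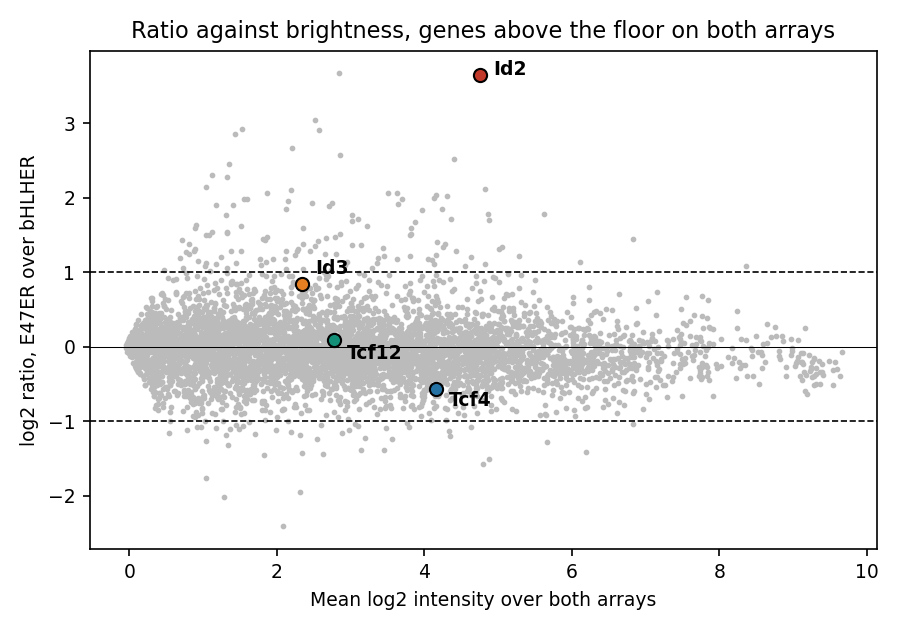
log2 ratio of E47ER over bHLHER against the mean log2 intensity of both arrays, 1 point for each of 5534 genes above the floor on both, with dashed lines at the 2-fold threshold. Id2, at 3.65, stands clear of genes of its brightness, while Id3 (0.84), Tcf12 (0.08) and Tcf4 (-0.57) lie within the cloud.

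With 1 array for each arm, the spread available came from 34 other genes with 2 probes above the floor. The ratios of the 2 probes of such a gene lay a median of 0.236 apart on the log2 scale. The SD of that difference was 0.752 over all pairs and 0.371 without the widest one. It measures how far 2 probes of a gene disagree on the same 2 arrays, and says nothing of how arrays or cultures vary. The log2 ratios of Id2 and Id3 differed by 2.80, a gap that 1 of the 34 pairs reached. Those of Id3 and Tcf4 differed by 1.41, which 1 pair reached as well. Those of Id3 and Tcf12 differed by 0.76 and those of Tcf12 and Tcf4 by 0.66, gaps that 3 and 5 of the pairs reached. In the order Id2, Id3, Tcf12, Tcf4, the gap from Id2 to Id3 was thus larger than the SD over all pairs. The gap from Id3 to Tcf12 was about equal to it and that from Tcf12 to Tcf4 smaller, though both exceeded the SD without the widest pair.

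The genes nearest in pattern were sought by the distance between pairs of log2 intensities, over the 2 arrays. For Id2 no gene lay within 0.25. The nearest was Lztfl1, at a distance of 0.94 with intensities of 50.6 and 8.84, followed by Grn, which encodes progranulin (1.09), and Tfrc, the transferrin receptor (1.32). Around the others genes were dense, with 24 within 0.25 of Id3, 77 of Tcf4 and 192 of Tcf12. The nearest to Id3 were Inpp5k, Pik3r2 and Slk, to Tcf4 Dlat, Apobr and Tor4a, and to Tcf12 Ercc4, Sh2d1b1 and Olfr330. With 1 pair of values for each gene, likeness here means a like level and a like ratio and no more.

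Genes beside Id2 on chromosome 12 did not share its ratio. The 3 nearest protein-coding genes on each side were taken, a choice made after the data were seen. Rnf144a, next to Id2, had 5.36 with E47ER and 5.32 with bHLHER, a log2 ratio of 0.01. On the other side Rrm2, a subunit of ribonucleotide reductase, had a log2 ratio of 0.52, at 42.6 against 29.7. Mboat2, Rsad2 and Cmpk2 were below the floor on both arrays, and Kidins220 had no named probe with a value. Beside Id3, the ribosomal protein gene Rpl11 had a log2 ratio of -0.52 and Eloa, an elongation factor gene, 0.20. Beside Tcf12, Zfp280d had 0.17, Cgnl1 -0.09, and Mns1 and Tex9 -0.19 and -0.39. Near Tcf4, Rnmt had -0.23, and near Id4 no gene was above the floor on both arrays.

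Genes with CAGCTG in a promoter were counted over the 4527 genes above the floor on both arrays that matched the promoter table. Of 596 such genes with CAGCTG, 24 (4.03%) were at least 2-fold higher with E47ER, against 86 of 3931 (2.19%) without it. At least 2-fold lower were 2 (0.336%) of the genes with CAGCTG and 31 (0.789%) of those without it. The medians of the 2 groups were -0.0029 and -0.05. Genes with any CANNTG, which include those with CAGCTG, also had the larger higher share. Of them 83 of 2777 (2.99%) were at least 2-fold higher, against 27 of 1750 (1.54%) without one. For lower genes these shares were 0.828% and 0.571%. These are counts on 1 pair of arrays, with no test of their difference, and Id2 is itself one of the 24.

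The partners that E proteins bind in tissue-specific dimers did not change past the threshold. Of 28 partner genes with a value, 7 were above the floor on both arrays, and none was at least 2-fold higher or lower. The median log2 ratio was -0.02, beside -0.05 for all genes. It was 0.06 after loess, 0.02 after quantile normalization and -0.47 with the centring. The medians of all genes in these settings were -0.0005, -0.03 and -0.51. Tal1, a factor of blood stem cells and the red cell lineage, had 22.4 with E47ER and 22.5 with bHLHER. Lyl1, its close relative, had 11.2 and 9.45, a log2 ratio of 0.25. The Tcf21 probe had 23.6 and 23.9. The other 21, among them Msc, Tal2, Twist1, Myod1 and the neurogenic factors, were below the floor on both arrays.

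Among cofactors that join E protein complexes, 1 of 10 members above the floor was at least 2-fold higher and none lower. Of all genes 2.31% and 0.813% were. The list median was 0.00076, which was -0.01 with scaling to percentile 75 and -0.46 with the centring. The higher one was Cbfa2t3, the corepressor Eto2, at 8.55 with E47ER and 3.50 with bHLHER, 2.45-fold, though its log2 ratio of 1.29 was 0.83 with the centring, below the threshold. The brightest others were Ssbp2, Hdac2 and Hdac1, with log2 ratios of -0.16, -0.12 and 0.12. Lmo2, which bridges Tal1 and Ldb1, had the lowest ratio of the list, -0.82, at 8.78 against 15.5, and -1.28 with the centring, and is named because of that value. Gata3 exceeded the floor on the E47ER array alone and was at least 1.56-fold higher there.

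Genes that act on the stability or activity of E and Id proteins did not pass the threshold. All 9 members above the floor lay between, with a median of 0.05 that was -0.41 with the centring. Usp1, a deubiquitinase that removes ubiquitin from Id proteins, had 114.8 with E47ER and 117.4 with bHLHER, a log2 ratio of -0.03. Calm3 and Calm2 encode calmodulin, which can bind E proteins and block them. Calm3 had a log2 ratio of 0.73 and Calm2 of 0.07.

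Of the BMP, TGF-beta and Egr genes, which lie upstream of Id genes in many cell types, 6 of 20 were above the floor on both arrays. Acvr2b, an activin receptor, was 2.28-fold higher with E47ER, at 15.6 against 6.84, but its log2 ratio of 1.19 was 0.73 with the centring. No member was at least 2-fold lower and 5 lay between, where 2.31% of all genes were at least 2-fold higher and 0.813% lower. The median was 0.21, or -0.24 with the centring, beside -0.05 and -0.51 for all genes. Tgfb1, Smad2 and Bmpr1b had log2 ratios of 0.36, 0.12 and 0.09. Egr1 and Egr3, immediate early factors that act ahead of Id3 in thymocytes, did not reach the floor on either array. Nor did Smad1, Smad5 and Bmpr2, and Smad9, at 0.962 and 0.609, lay at the floor with E47ER.

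Genes known as E protein targets in lymphoid progenitors had 9 members above the floor. Of these, 3 passed the threshold on the higher side and 1 on the lower side, where 2.31% and 0.813% of all genes did. The list was chosen with earlier results of these data known. Its median was 0.28, or -0.17 with the centring, beside -0.05 and -0.51 for all genes. Irf8, Il7r and Cdkn1a had log2 ratios of 2.92, 2.06 and 1.22, so that of Id2 was larger than each. The same Irf8 probe is counted again among the conventional dendritic markers below. Rag2 was the lower one, at -1.06. Above the floor on 1 array were 6 more members with E47ER and 2 with bHLHER, and 1 in each direction, Ptcra and Gfi1b, was past 2-fold by its bound. Of all 10141 genes with a value, 180 (1.77%) exceeded the floor with E47ER alone and 171 (1.69%) with bHLHER alone, of which 35 and 5 were past 2-fold by their bound. Cdkn1a, at 0.76 with the centring, then no longer passed. The other helix-loop-helix factors, a mixed list of repressors and activators, had 12 members above the floor, 1 at least 2-fold lower, none higher and a median of 0.20, which was -0.25 with the centring; after loess Bhlhe40 was past the threshold too. Myc was the lower one, at 9.54 against 20.1, a log2 ratio of -1.07. Hes6, Usf2 and Hif1a had 0.65, -0.07 and 0.32. Ahr, the aryl hydrocarbon receptor, exceeded the floor on the E47ER array alone, with a bound of at least 2.76-fold higher.

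**Figure D3:**
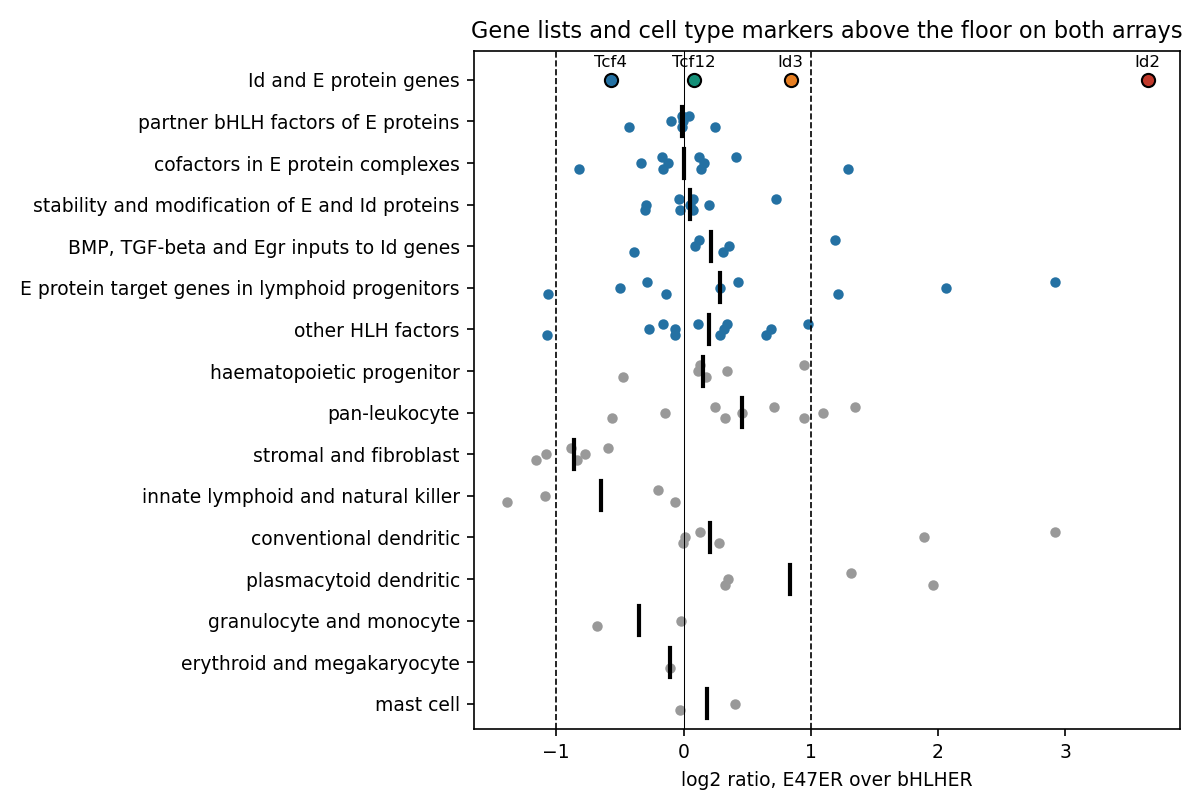
log2 ratio of E47ER over bHLHER for the Id and E protein genes (top, named), for lists of related genes (blue) and for cell type markers (grey), 1 point for each gene above the floor on both arrays. Black bars are list medians, dashed lines the 2-fold threshold; Id2, at 3.65, lies to the right of every point of the lists drawn.

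In RNA of a mixed population, fewer cells of a type and less RNA for each cell cannot be told apart. Beside the Id2 value, 7 of 9 pan-leukocyte markers had a ratio above 0, where 44.2% of all genes above the floor on both arrays did. The median of these markers was 0.46, and their summed intensity 340.8 with E47ER against 223.2 with bHLHER. Such a sum is weighted by its brightest probes. All 6 stromal and fibroblast markers above the floor had a ratio below 0, with a median of -0.86 (-1.32 with the centring). Their list summed to 126.4 against 227.6, of which Vim alone gave 93.8 and 167.8. Of these 6 markers, Bgn (-1.16) and Timp3 (-1.08) were at least 2-fold lower, where 0.813% of all genes were. With the centring all 6 were, as were 422 of all 5534 genes. With the pseudocount Timp3 was at -0.96. The part of these shifts in the ratios of Id2, Id3 and Tcf4 was not tested. Of the pan-leukocyte markers Cd52 (1.35) and Laptm5 (1.09) were at least 2-fold higher, where 2.31% of all genes were. The ratio of Id2 exceeded both. With the centring both were below the threshold, at 0.89 and 0.64, but the centre is the median of these same 9 markers. The 2 of these markers with a ratio below 0 were Cd53 (-0.56) and Lcp1 (-0.15). With the centring Cd53 was at -1.02, past the threshold on the lower side.

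Of haematopoietic progenitor markers 6 of 7 were above the floor on both arrays, with a median of 0.15 that was -0.30 with the centring. Kit and Flt3, receptors of early progenitors, had log2 ratios of 0.17 and 0.13, and Gata2 was below the floor on both arrays. Ratios of this list were not uniform, with 5 above 0 and 1 below. The lowest was Meis1, at 20.5 with E47ER against 28.5, a log2 ratio of -0.47. The highest was Ptprc, also a pan-leukocyte marker, at 0.94, which was 1.02 after loess and so past the threshold. Innate lymphoid and natural killer cells need Id2. Of 10 markers of those cells with a value, 5 were below the floor on both arrays, Klrb1c and Ncr1 among them. Of the 4 measured markers of those cells none had a ratio above 0, beside 44.2% of all genes. At least 2-fold lower were 2 of them (Il18rap and Il18r1), where 0.813% of all genes were. The summed intensity of 10 markers was 25.4 with E47ER against 42.4 with bHLHER. Klrd1 of this list went the other way: it exceeded the floor on the E47ER array alone, at 1.61 against 0.600, and was at least 1.69-fold higher. Conventional dendritic cells of the Xcr1 type also need Id2. The Xcr1 gene itself had 11.1 and 11.2, Clec9a 1.32 and 1.08, and 2 of 6 markers, Irf8 and Itgax, were at least 2-fold higher, beside 2.31% of all genes. The list median was 0.21, or -0.25 with the centring, beside -0.05 and -0.51 for all genes. The summed intensity of 8 such markers was 165 with E47ER and 140.4 with bHLHER, of which Cst3 alone gave 121.3 and 120.5.

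Plasmacytoid dendritic cells depend on Tcf4, whose own ratio was -0.57. Of 4 measured markers of these cells 2 were at least 2-fold higher with E47ER and none lower, where 2.31% and 0.813% of all genes were, and the median was 0.84, or 0.38 with the centring. Irf7 had 8.80 with E47ER and 2.26 with bHLHER, and Cox6a2 51.1 and 20.5, the latter gene with a log2 ratio of 1.32 that was 0.86 with the centring. Tlr7 and Tlr9 had log2 ratios of 0.35 and 0.33. The summed intensity of 6 markers was 67.2 against 28.1, of which Cox6a2 alone gave 51.1 and 20.5. Granulocyte and monocyte, erythroid and megakaryocyte, and mast cell markers had 2, 1 and 2 genes above the floor on both arrays, with medians of -0.35, -0.11 and 0.19, the last of which turned to -0.27 with the centring. None of these 5 genes passed the threshold, though Lyz2 was at -1.14 with the centring. Itgam, a granulocyte and monocyte marker, exceeded the floor on the E47ER array alone, at 1.69 against 0.487, and was at least 1.77-fold higher. The part of any of these cell types in the ratios of the Id and E protein genes was not tested.

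Esr1, the gene of the oestrogen receptor used in such fusions, had an intensity of 3.86 in the E47ER arm against 0.0726 in the other, a bound of at least 4.05-fold higher. The labels do not say whether its probe reads the construct, so the dose of either fusion beside the Id2 value is unknown.

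**Figure D4:**
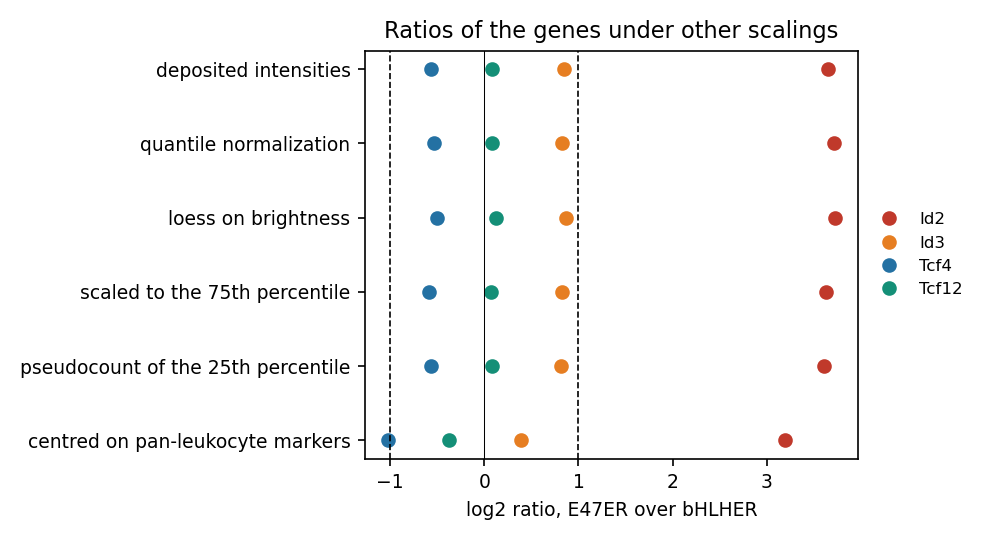
log2 ratio of the 4 genes above the floor on both arrays under the deposited intensities and 5 other scalings, with dashed lines at the 2-fold threshold. Id2 stays between 3.19 and 3.73, and centring on pan-leukocyte markers takes Tcf12 from 0.08 to -0.37 and Tcf4 to -1.03.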

How the data were processed

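RNA of the 2 samples was hybridised to 1-colour CodeLink mouse arrays, per the labels. The authors deposited an intensity table of 20289 probes by 2 arrays, on a linear scale. How they scaled it or removed background is not stated in the labels. The medians were 0.957 and 0.953, so the deposited intensities were used as they stand. Values were missing for 119 (E47ER) and 125 (bHLHER) probes, and 45 and 84 were not above 0. Probes were named through the platform annotation (10349 named, 9940 unnamed here), with symbols updated by gene identifier from RefSeq GRCm38.p6.

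For each gene the probe with the highest mean was taken (Python 3.11.15, pandas 2.3.3), and its log2 ratio (E47ER over bHLHER) was taken where it was above the median of both arrays. A gene above it on 1 array received a bound against the other array, taken as its median or the gene's value, whichever was higher. The size threshold was a log2 ratio of 1. Precision is limited by the number of arrays, and no p-value was computed. Quantile and loess alternatives used limma 3.58.1 (R 4.3.3). The procedure was tested on simulated data with planted fold changes. The simulated noise was below the spread of the probe pairs, so that test does not speak to noise in these arrays.

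The members, lists and tests were chosen with earlier results of these data known. Named are the members, members of the 6 lists past the threshold and, where fewer than 3 passed, the 3 brightest others, the 3 genes nearest in pattern and Esr1. Other genes were named after their values were seen. A comparison of the proteins' sequences was not run.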

Additional observations from a re-analysis of the deposited data

How the results depend on the processing

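No paired analysis was possible because there was 1 array in each arm, which also left no replicate to omit. The log2 ratio of Id2 ran from 3.19 to 3.73 over 10 alternatives and stayed past the threshold, also when that was 1.5. That of Id3 ran from 0.39 to 0.87 over 9 alternatives and stayed below it. Id3 had no ratio when the floor was set at percentile 75. The other floors, the mean over probes and the threshold of 1.5 could not change the ratio of a gene with 1 probe. Only the other scalings, with the pseudocount, could move the ratios of these genes. Centring on pan-leukocyte markers took Tcf4 to -1.03, past the threshold, and Tcf12 to -0.37, by subtracting 0.46 from every log2 ratio. In the other 9 alternatives Tcf4 and Tcf12 kept their sign and lay below the threshold. The counts of all genes past 2-fold on the higher and lower side, 128 and 45, became 204 and 77 when the floor was percentile 25, 43 and 16 when it was percentile 75, and 545 and 348 without one. A threshold of 1.5 gave 56 and 6, and the centring gave 60 and 422. Fewer or more genes enter at each floor. Id4 lay under the median of all probes on both arrays and has no ratio. Signal near or under that median limits what can be said of it, and 1 array for each arm limits all values.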
